A study of Mus musculus with 18 samples.

Results

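The heat shock protein and DNAJ genes were examined in mouse heart apex by RNA sequencing of polyadenylated RNA. The members were the protein-coding genes named as HSP70 and HSP110 (Hspa, Hsph), HSP90 of the cytosol (Hsp90a), small heat shock proteins (Hspb), the mitochondrial chaperonin and its lid (Hspd1, Hspe1), or DNAJ cochaperones (Dnaja, Dnajb, Dnajc), with Hspa5 and Dnajb9 left out. This gave 69 of 54532 genes in the count table, and 63 of the 69 passed the filter on low counts. Dnajb7, Dnajb8, Dnajc22, Dnajc5b, Dnajc5g and Hspb9 did not pass and were not tested. The rule went by gene name, and it was chosen with earlier results of these data known. By textbook location 10 members are mitochondrial, 10 belong to the endoplasmic reticulum and 49 to the cytosol or other places. These others include the spliceosome (Dnajc8), synaptic and secretory vesicles (Dnajc5) and ciliary transport (Hspb11), so a label of cytosolic and mitochondrial heat shock proteins is narrower than the genes it takes in.

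HSP70 proteins bind stretches of unfolded polypeptide in a cycle driven by ATP. DNAJ proteins bring them substrates and start ATP hydrolysis, HSP110 proteins release the nucleotide, and HSP90 receives partly folded clients such as kinases and steroid receptors. Small heat shock proteins hold damaged proteins without ATP and are abundant in the contractile apparatus of heart muscle. In mitochondria a separate HSP70 (Hspa9) pulls in precursor proteins, and the barrel of Hspd1 with its lid Hspe1 folds them. When cytosolic proteins misfold, the transcription factor Hsf1 binds heat shock elements, inverted repeats of a short nGAAn unit, and drives the inducible members.

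The study asked what raising lamin A or lamin C through an adeno-associated virus (rAAV9) does in dilated cardiomyopathy made by knocking down Lmna. Its 18 libraries came from 6 groups of 3 hearts, all labelled wild type in genotype. Batch LC held hearts labelled Lmna shRNA plus lamin C (here lamin C hearts), hearts labelled Lmna shRNA (shRNA-labelled hearts) and controls. Batch LA held hearts labelled Lmna shRNA plus lamin A (lamin A hearts), shRNA-labelled hearts and controls. What the controls received, the promoter driving each lamin, and the age and sex of the mice are not given in the sources used here. Each lamin was given in 1 batch, so lamin and batch cannot be told apart beyond each batch's own shRNA-labelled and control hearts. Libraries held 31418657 to 41259968 counts. Levels of 1 gene are given in CPM, counts scaled to the TMM-adjusted library size, and levels are compared between genes only in the authors' FPKM, which is also per gene length. Changes are log2 fold changes ± standard error from edgeR over 3 libraries in each group, and a member was called where its p, adjusted by Benjamini and Hochberg over all 17876 genes tested, was under 0.05. Nothing in the labels says that the hearts of a group came from separate litters or cages, so the p-values measure the spread between these samples.

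Several facts of the libraries touch every result that follows. Lmna, the target of the shRNA, was not lower in the shRNA-labelled hearts, with 136.8, 133.5 and 114.8 CPM in batch LC, against 122, 128.5 and 119.8 CPM in its controls, and 126.9, 121.7 and 130.3 CPM in batch LA, against 120.0, 119.6 and 111.7 CPM in its controls. The summed level of 12 cardiomyocyte markers was 39120 to 45760 CPM in shRNA-labelled hearts and 95420 to 99650 CPM in controls of batch LC, and 42510 to 44030 CPM in shRNA-labelled hearts and 92860 to 95490 CPM in controls of batch LA, and all 12 were called lower in both. The sum of 10 fibroblast markers was 6624 to 7535 CPM in shRNA-labelled hearts and 2353 to 2847 CPM in controls of batch LC, and that of 12 macrophage markers was 1852 to 2036 CPM and 459 to 566.6 CPM in the same groups. In bulk tissue fewer cells of a type and less RNA per cell cannot be told apart, and the part of these marker shifts in the changes below was not tested. The third control of batch LC stood apart from the other libraries of its batch on clock genes (Arntl at 26.2 CPM, against 0.751 to 5.73 CPM in the other 8 libraries of batch LC and 21.4 to 35.7 CPM in those of batch LA), and its label number stands next to that of the third control of batch LA. Calls that ended or appeared without it are given with the results. Scaling libraries by their totals alone raised the median change of all genes by 0.42 and 0.44 in the shRNA comparisons of batches LC and LA, and by 0.11 and 0.24 for lamin C and lamin A over control. It moved the median by -0.31 and -0.20 for lamin C and lamin A over the shRNA-labelled hearts.

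The bases upstream of a member's start are shown in 4 windows that belong to 5 members. Each holds at least 1 pair of facing heat shock element units, which 14 of the 55 members with a RefSeq promoter have. The windows do not stand for all members. Hspa1l, Hspa2 and Dnajb1, called higher with the shRNA label in both batches, have no such pair and are not shown. With the shRNA label Hspa1b and Hspb1 rose, while Hspd1 and Hspe1 fell. Hsph1 was called lower in batch LC only, a call lost without the third control of that batch. Capitals mark each pair of facing units, searched as GAANNTTC or TTCNNGAA, each of which reads the same on the other strand, with overlapping pairs run together. All 4 are from the RefSeq table on GRCm38.p6, written 5′ to 3′ on the strand of the gene.
Hspa1b (chr17:34959239-34959488, minus strand, the inducible cytosolic HSP70): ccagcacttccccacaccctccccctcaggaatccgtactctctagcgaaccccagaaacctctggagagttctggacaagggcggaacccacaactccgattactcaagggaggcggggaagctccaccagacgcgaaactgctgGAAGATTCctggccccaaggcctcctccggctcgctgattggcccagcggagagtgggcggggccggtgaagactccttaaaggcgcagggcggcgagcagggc
Hspb1 (chr5:135887669-135887918, plus strand, the small heat shock protein HSP25): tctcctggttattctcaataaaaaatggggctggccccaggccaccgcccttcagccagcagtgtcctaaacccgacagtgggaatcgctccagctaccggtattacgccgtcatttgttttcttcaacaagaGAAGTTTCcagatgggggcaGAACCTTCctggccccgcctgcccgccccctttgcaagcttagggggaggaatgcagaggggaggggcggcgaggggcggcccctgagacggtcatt
Hsph1 (chr5:149636337-149636586, minus strand, an HSP110): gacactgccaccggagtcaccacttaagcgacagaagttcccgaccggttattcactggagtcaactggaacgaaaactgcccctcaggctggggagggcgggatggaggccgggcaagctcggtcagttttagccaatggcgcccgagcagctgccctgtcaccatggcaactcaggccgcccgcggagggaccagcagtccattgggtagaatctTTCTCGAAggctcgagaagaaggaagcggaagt
Hspd1 and Hspe1 (chr1:55087933-55088147, plus strand of Hspe1, the stretch between the RefSeq start of Hspe1 and that one of 2 RefSeq starts of Hspd1 that lies outside Hspe1): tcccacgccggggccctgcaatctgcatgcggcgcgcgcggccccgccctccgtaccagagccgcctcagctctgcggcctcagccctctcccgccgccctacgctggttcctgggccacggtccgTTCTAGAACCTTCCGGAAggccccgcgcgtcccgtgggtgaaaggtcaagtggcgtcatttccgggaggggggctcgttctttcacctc
The Hspa1b window held 1 pair, the Hspb1 window 2, the Hsph1 window 1, and the 215 bases that Hspd1 and Hspe1 share 3 overlapping pairs. The first 250 bases upstream of Hspa1a and Hspa1b differed at 3 positions. Hsph1 has 2 RefSeq starts, and the one farthest upstream was used. The count table places genes differently. There Hsph1 reaches to 149636376, so its pair, beginning 33 bases before the RefSeq start, lies inside the gene. The Hspd1 and Hspe1 stretch likewise lies inside Hspd1 (55077835 to 55088243).

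RefSeq promoters were found for 55 of the 69 members. Those without one included Hsp90aa1, Hsp90ab1, Hspa8, Hspa9 and Hspa13, so the shares below do not cover them. A pair of units stood within 250 bases upstream of a start in 14 of these 55 (25.5%), against 3932 of 27025 genes in the table (14.5%). It stood in 7 of the 15 members with a promoter that were called higher with the shRNA label in both batches, in 5 of the 19 called lower in both, and in 2 of the 21 others. A run of 3 facing units (GAANNTTCNNGAA or TTCNNGAANNTTC) stood in Dnajb6, Hspd1 and Hspe1, which is 5.45% of the members, against 0.514% of all genes. Hspd1 and Hspe1 share the stretch that holds this run, and Hspa1a and Hspa1b have near-identical upstream bases. The counts and shares of members therefore take the same or a near-identical site more than once. These letters describe the windows and say nothing of binding in these hearts.

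Control hearts fixed the scale of each member. Hspb7, the cardiovascular small heat shock protein, had the highest level per gene length at 636 ± 60.7 FPKM (mean ± SD, n = 6 controls of both batches), followed by Hsp90ab1, the constitutive HSP90, at 494 ± 17.6 FPKM. Hspb8, which works with the cochaperone Bag3 (289 ± 15.5 FPKM), Hspa8, the constitutive HSP70 (285 ± 22.2 FPKM), and Hspb6, or HSP20 (283 ± 12.5 FPKM), came next and did not differ beyond their spread. The mitochondrial Hspa9 (218 ± 9.23 FPKM) and Hspd1 (188 ± 9.77 FPKM) were above Hspb1 (147 ± 13.9 FPKM), and the ranges of these 3 did not overlap. Among DNAJ genes the cytosolic Dnaja2 led with 91.5 ± 9.55 FPKM. The inducible HSP90 and HSP70 genes stood lower, Hsp90aa1 at 37.6 ± 5.16 FPKM, Hspa1a at 0.572 ± 0.168 FPKM and Hspa1b at 0.523 ± 0.110 FPKM.

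**Figure D1:**
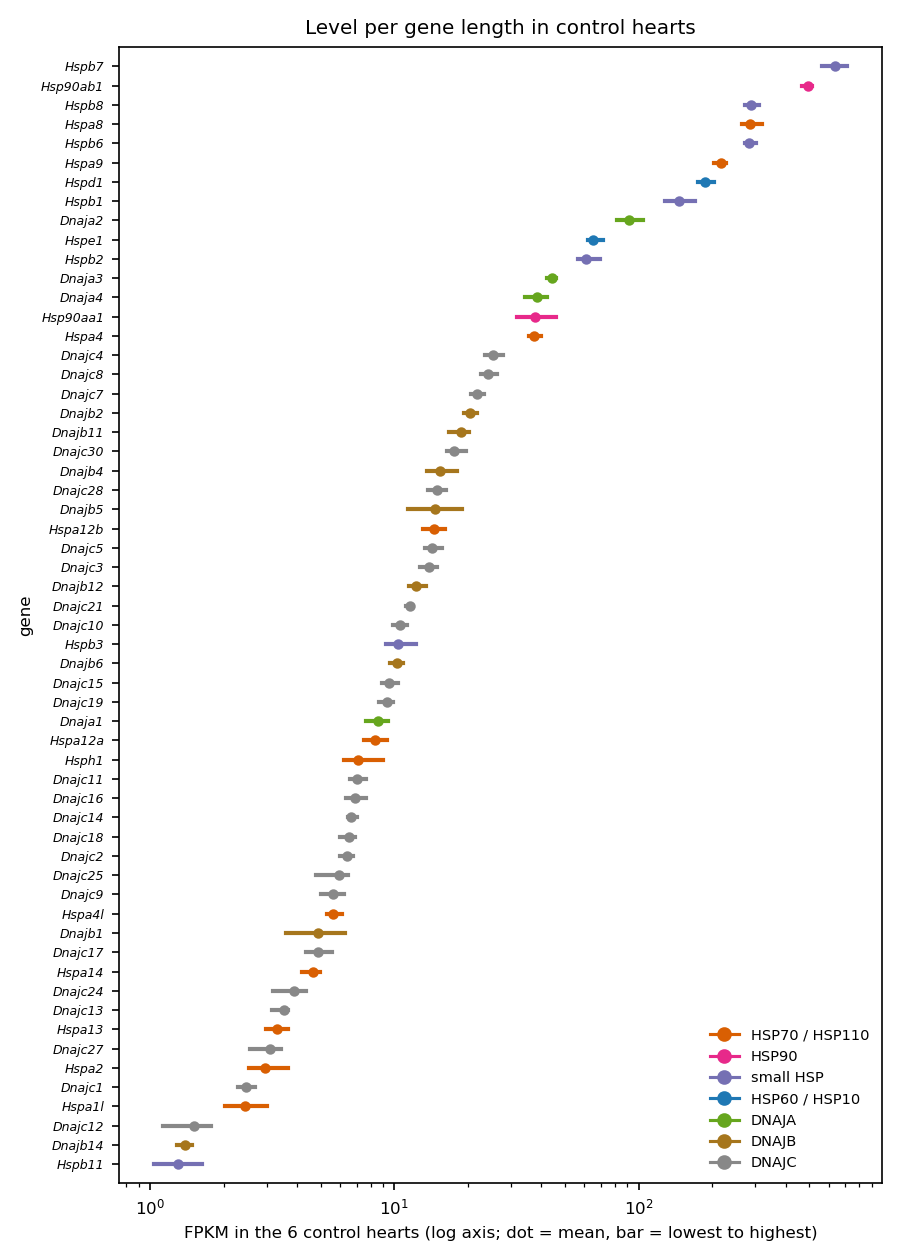
Level per gene length (FPKM, log axis) of the members at 1 FPKM or more on average in the 6 control hearts, coloured by family, with dots for means and bars from lowest to highest library. Hspb7 (636 FPKM) and Hsp90ab1 (494 FPKM) stand at the top, and Hsp90aa1 (37.6 FPKM) lies far below its constitutive partner.

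The first comparison asked how the shRNA-labelled hearts differed from the controls of their own batch. Hspa1a, Hspa1b, Hsp90aa1 and Hspb1 rose and all 10 mitochondrial members fell, in both batches. In batch LC 19 of 63 members were called higher and 30 lower, 77.8% of them, against a background in which 62.9% of all genes tested were called (33.3% higher, 29.6% lower). In batch LA 20 were called higher and 26 lower, 73% of the members, against 61.4% of all genes (32.4% higher, 29% lower). With so many genes called, the results lie in which members moved and by how much. With libraries scaled by their totals alone the split was 36 higher and 16 lower in batch LC and 39 higher and 14 lower in batch LA. The batches share no library, and 18 members were called higher in both, 25 lower in both and 0 in opposite directions. The test of the difference between the batches' shRNA effects called 0 of the 63 members in edgeR, where 0.00559% of all genes were called. At an unadjusted p under 0.05 it held 5 members, where 6.39% of all genes were at such a p, and DESeq2 and limma-trend called 0 members. Without the third control of batch LC it called 1 member, where 0.257% of all genes were called, and this was Dnajb5, with a difference of -0.47 (edgeR adjusted p = 0.0439). Without that control 16 members were called higher and 29 lower in batch LC, where 59.4% of all genes were called.

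**Figure D2:**
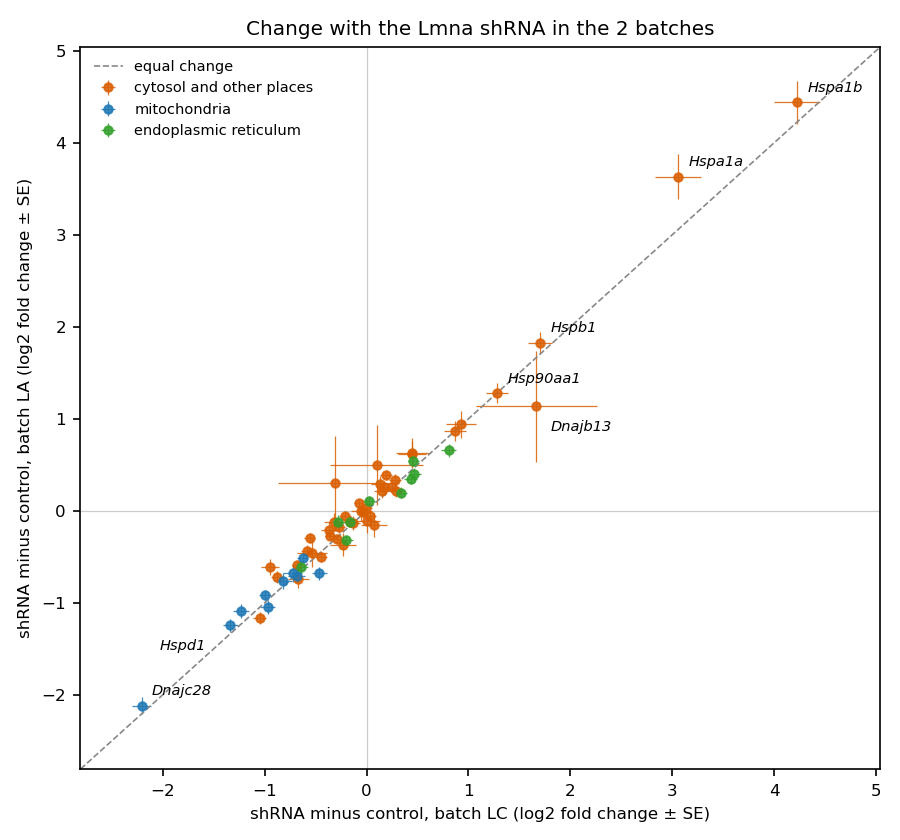
Log2 fold change ± SE of each tested member in shRNA-labelled hearts over controls, in batch LC (horizontal) and batch LA (vertical), coloured by location, with the dashed line marking equal change. Hspa1b and Hspa1a lie at the upper right (4.22 and 3.06 in batch LC) and Dnajc28 at the lower left (-2.21 in batch LC), near the line of equal change.

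Hspa1b and Hspa1a encode the same inducible HSP70 from neighbouring copies on chromosome 17, and had the largest rises of the members. Hspa1b had 5.50, 3.39 and 4.98 CPM in lamin C hearts, 30.1, 27.8 and 34.2 CPM in shRNA-labelled hearts and 1.93, 1.54 and 1.43 CPM in controls of batch LC. In batch LA it had 5.20, 5.51 and 9.76 CPM in lamin A hearts, 31.6, 28.3 and 28.4 CPM in shRNA-labelled hearts and 1.18, 1.14 and 1.77 CPM in controls. All 6 shRNA-labelled libraries lay above all others, and each lamin group lay between its shRNA-labelled and control hearts without overlap. Hspa1b was higher than in controls by 4.22 ± 0.23 in batch LC (p adjusted by edgeR = 7.73e-12) and by 4.44 ± 0.23 in the other batch (edgeR adjusted p = 6.9e-12). Hspa1a had 16.1, 17.6 and 20.1 CPM in shRNA-labelled hearts and 2.45, 2.04 and 1.93 CPM in controls of batch LC, a change of 3.06 ± 0.23, and changed by 3.63 ± 0.24 in batch LA. Because the copies are near-identical, the split of reads between them is uncertain, and their counts were also summed. The sum changed by 3.68 ± 0.21 in batch LC (p adjusted by edgeR = 1.78e-11) and 4.10 ± 0.22 in the other batch (edgeR adjusted p = 9.58e-12). Hspa8, the constitutive counterpart, had 1214, 1080.4 and 1161 CPM in shRNA-labelled hearts and 1219, 1162 and 1401 CPM in controls of batch LC, overlapping ranges with a change of -0.13 ± 0.07 (edgeR adjusted p = 0.12). Of the FPKM of Hspa1a, Hspa1b and Hspa8 together, the inducible copies held 5.41% to 6.57% in shRNA-labelled hearts and 0.356% to 0.531% in controls of batch LC, and 5.51% to 5.996% in shRNA-labelled hearts and 0.282% to 0.358% in controls of batch LA. Even at their highest they remained a small share of HSP70 transcripts next to Hspa8.

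HSP90 rose in its inducible form. Hsp90aa1, the inducible cytosolic HSP90, had 182, 166 and 182 CPM in lamin C hearts, 351, 325 and 400.2 CPM in shRNA-labelled hearts and 130.2, 128 and 184 CPM in controls of batch LC. In batch LA it had 293, 297 and 332 CPM in lamin A hearts, 388, 367 and 372 CPM in shRNA-labelled hearts and 152, 153 and 159 CPM in controls. Controls and shRNA-labelled hearts did not overlap in either batch, the third control of batch LC was the highest control, and lamin A hearts came closer to the shRNA-labelled hearts than lamin C hearts did. The log2 change of Hsp90aa1 over control was 1.28 ± 0.11 in batch LC (p adjusted by edgeR = 3.08e-09) and 1.28 ± 0.11 in the other batch (edgeR adjusted p = 3.37e-09), and 1.46 in batch LC without the third control. Hsp90ab1 had 1184, 1207 and 1236 CPM in shRNA-labelled hearts and 1522, 1559 and 1567 CPM in controls of batch LC, and changed by -0.36 ± 0.05 there and -0.27 ± 0.05 in batch LA, but by 0.07 and 0.16 with libraries scaled by their totals. Independent of library scaling, Hsp90aa1 held 17.0% to 19.8% of the FPKM of both HSP90 genes in shRNA-labelled hearts and 5.91% to 8.24% in controls of batch LC, and 18.3% to 19.5% in shRNA-labelled hearts and 7.35% to 7.47% in controls of batch LA.

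**Figure D3:**
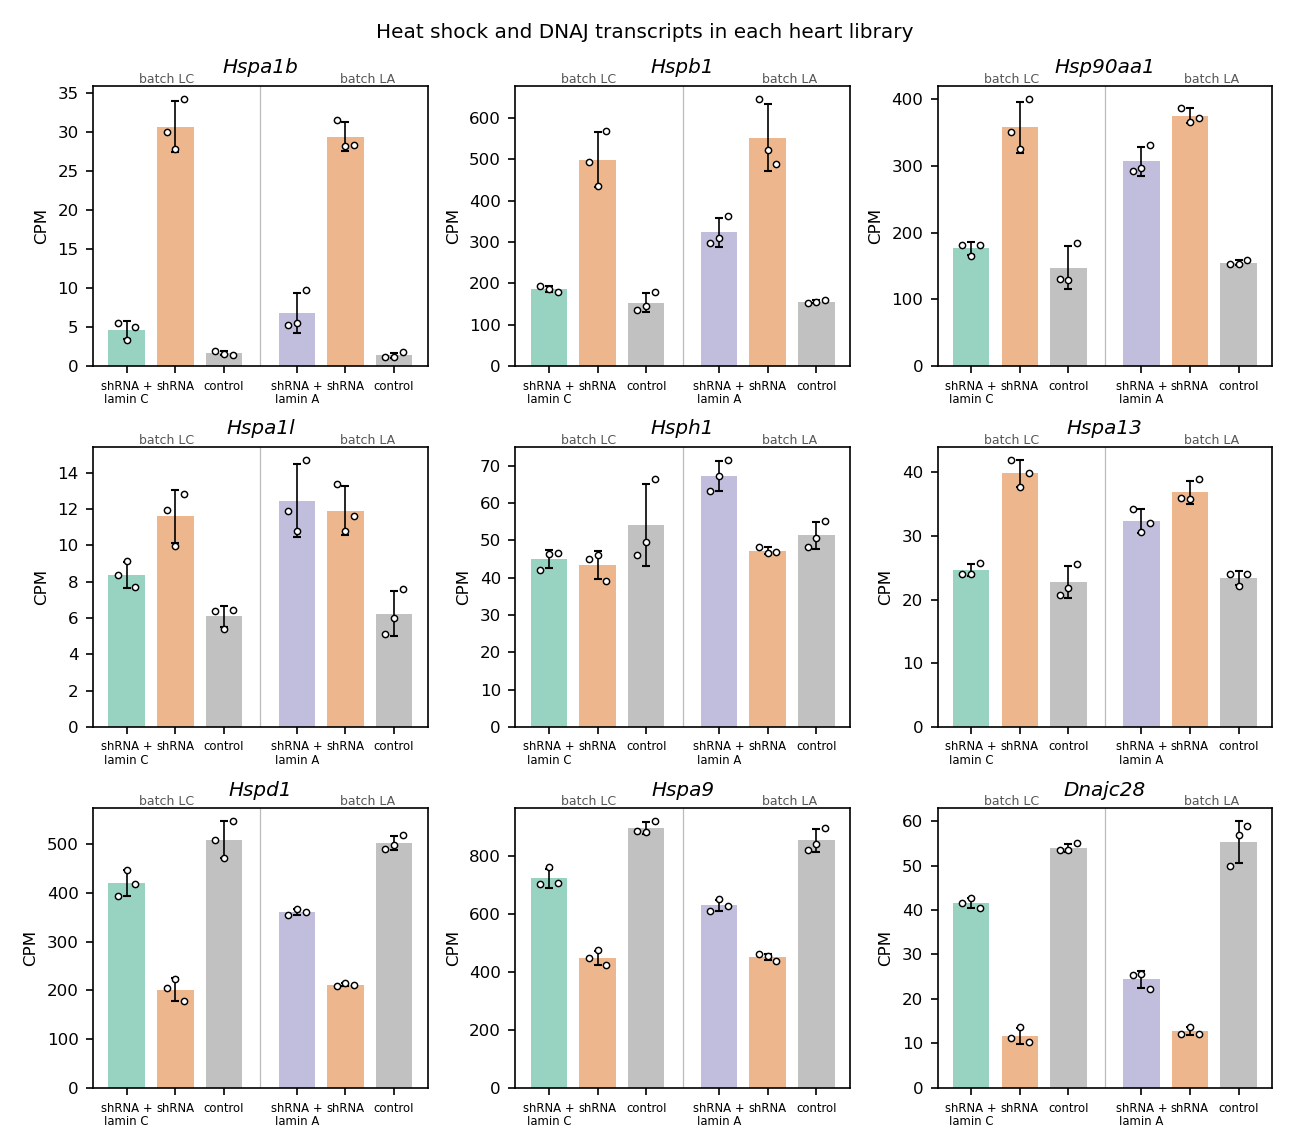
CPM of 9 members in each of the 18 libraries (circles), with bars for group means and lines for SD (n = 3), batch LC left of the grey line and batch LA right of it. Hspa1b, Hspb1 and Hsp90aa1 are highest in shRNA-labelled hearts, while Hspd1, Hspa9 and Dnajc28 are lowest there, and lamin A hearts exceed lamin C hearts for Hspb1 (298 to 362 CPM, against 180.0 to 194 CPM).

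The remaining HSP70 genes moved in both directions. Hspa1l, an HSP70 best known from testis, changed by 0.93 ± 0.15 and 0.94 ± 0.15 in batches LC and LA, and Hspa2, likewise rich in testis, by 0.86 ± 0.11 and 0.86 ± 0.11, all called higher at low levels (Hspa2 at 14.8, 15.4 and 16.2 CPM in shRNA-labelled hearts and 8.17, 9.89 and 7.41 CPM in controls of batch LC). Hspa13, an HSP70-like protein of microsomes, rose by 0.81 ± 0.07 and 0.66 ± 0.07. Hspa12a and Hspa12b are distant relatives with an atypical ATPase domain, and Hspa12b is known from endothelial cells. Hspa12a had 22.1, 23.3 and 21.4 CPM in shRNA-labelled hearts and 44.0, 44.7 and 49.6 CPM in controls of batch LC, without overlap. It changed by -1.05 ± 0.07 and -1.17 ± 0.07, and Hspa12b by -0.87 ± 0.07 and -0.72 ± 0.07, all called lower. Beside Hspa12b, all 10 endothelial markers were lower in both batches, with sums of 1107 to 1250.0 CPM in shRNA-labelled hearts and 1793 to 1947 CPM in controls of batch LC, and their part in the result was not tested. Hspa14, an HSP70-like protein of ribosomes, had changes of -0.01 ± 0.06 and 0.03 ± 0.06 and was called in neither batch.

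The HSP110 exchange factors did not follow the inducible HSP70. Hsph1 had 42.1, 46.3 and 46.6 CPM in lamin C hearts, 44.9, 46.0 and 39.0 CPM in shRNA-labelled hearts and 46.2, 49.6 and 66.6 CPM in controls of batch LC. In batch LA it had 63.4, 67.2 and 71.5 CPM in lamin A hearts, 48.2, 46.7 and 46.9 CPM in shRNA-labelled hearts and 48.3, 50.5 and 55.3 CPM in controls. The lamin A hearts lay above all other groups of that batch, and the third control of batch LC lay far above the other 2. With the shRNA label Hsph1 was called at -0.32 ± 0.10 in batch LC (edgeR adjusted p = 0.00971), but -0.15 (edgeR adjusted p = 0.0975) without that control and 0.10 with libraries scaled by their totals. Its difference of -0.12 ± 0.10 in the other batch was not called (edgeR adjusted p = 0.317). Hspa4 had changes of -0.08 ± 0.05 and 0.09 ± 0.05, neither called. Hspa4l changed by -0.21 ± 0.06 in batch LC, or 0.21 with libraries scaled by their totals, and by -0.06 ± 0.06 in batch LA, where it was not called.

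Among small heat shock proteins Hspb1 was the member that moved most. Hspb1, known as HSP25 in mouse, protects actin filaments and holds misfolded proteins. It had 194, 186 and 179.9 CPM in lamin C hearts, 493, 435 and 568 CPM in shRNA-labelled hearts and 135, 145 and 179 CPM in controls of batch LC. In batch LA it had 298, 309 and 362 CPM in lamin A hearts, 645, 524 and 489 CPM in shRNA-labelled hearts and 152, 156 and 159 CPM in controls. The shRNA-labelled hearts stood clear of both other groups in each batch, and lamin A hearts stood clear of their controls. Hspb1 changed by 1.70 ± 0.11 in batch LC (p adjusted by edgeR = 1.46e-10) and 1.83 ± 0.11 in the other batch (edgeR adjusted p = 6.56e-11). Hspb6, which acts with actin and the sarcomere, had 500.5, 608 and 444 CPM in shRNA-labelled hearts and 643, 642 and 712 CPM in controls of batch LC. Hspb6 changed by -0.36 ± 0.08 and -0.20 ± 0.08, but by 0.06 and 0.23 with libraries scaled by their totals. Hspb7 had 1901, 2030.0 and 2295 CPM in shRNA-labelled hearts and 2023, 1982 and 1690.4 CPM in controls of batch LC, a difference of 0.13 ± 0.09 that was not called, and was called in batch LA at 0.29 ± 0.09. Hspb8 had -0.04 ± 0.06 and -0.01 ± 0.06 and was called in neither batch. Hspb2 and Hspb3, which form a complex in muscle, had 0.15 ± 0.07 and -0.23 ± 0.13 in batch LC, uncalled, and 0.21 ± 0.07 and -0.37 ± 0.13 in batch LA, both called, with 0.07 for Hspb3 when libraries were scaled by their totals. Hspb2 overlaps Cryab on the other strand, whose counts are much higher (a mean of 49180 against 2028 per library), so its values are uncertain. The batch LA calls of Hspb2, Hspb3, Hspb6 and Hspb7 were each lost when 1 library of that batch was left out, Hspb7 only without the first shRNA-labelled heart (0.19). Hspb11, a subunit of ciliary transport rather than a chaperone, rose by 0.45 ± 0.16 and 0.63 ± 0.16, the batch LC call being lost without the first shRNA-labelled heart (0.34) or the first control (0.27).

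All 10 mitochondrial members fell in both shRNA comparisons, with a median change of -0.89 in batch LC (range -2.21 to -0.46), beside a median of 0.05 over all genes tested. With libraries scaled by their totals 9 of the 10 were still called lower in each batch, with Dnajc4 (-0.04) the exception in batch LC and Dnajc11 (-0.08) in batch LA. Among the 10, Dnajc19 overlaps Fxr1 on the other strand, whose counts are higher (a mean of 6847 against 1085 per library), so its values are uncertain. Hspd1, the HSP60 barrel, had 394, 448 and 419 CPM in lamin C hearts, 204, 224 and 178 CPM in shRNA-labelled hearts and 509, 472 and 547 CPM in controls of batch LC. In batch LA it had 355, 367 and 362 CPM in lamin A hearts, 209, 215 and 212 CPM in shRNA-labelled hearts and 490.2, 499 and 519 CPM in controls. The 3 groups of each batch did not overlap, with the lamin hearts in the middle. Hspd1 changed by -1.34 ± 0.07 in batch LC (p adjusted by edgeR = 9.14e-12) and -1.24 ± 0.07 in the other batch (edgeR adjusted p = 2.6e-11), and its lid Hspe1 by -0.72 ± 0.10 and -0.68 ± 0.10. The genes of these partners overlap on opposite strands, so some reads could be exchanged. The stretch printed above lies upstream of Hspe1 and of this start of Hspd1, and held 3 pairs of heat shock units.

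Hspa9, the mitochondrial HSP70, had 702, 761 and 708 CPM in lamin C hearts, 448, 474 and 425 CPM in shRNA-labelled hearts and 885, 882 and 919 CPM in controls of batch LC, without overlap, and changed by -0.996 ± 0.05 in batch LC and -0.92 ± 0.05 in batch LA. Dnaja3, a DNAJ partner of Hspa9 in the matrix, changed by -1.23 ± 0.08 and -1.09 ± 0.08. Dnajc28 had 41.5, 42.7 and 40.4 CPM in lamin C hearts, 11.2, 13.7 and 10.2 CPM in shRNA-labelled hearts and 53.4, 53.5 and 55.0 CPM in controls of batch LC. In batch LA it had 25.3, 25.6 and 22.2 CPM in lamin A hearts, 12.2, 13.7 and 12.2 CPM in shRNA-labelled hearts and 49.9, 56.8 and 58.9 CPM in controls. This was the deepest fall of any member, without overlap between groups, at -2.21 ± 0.09 in batch LC (p adjusted by edgeR = 4.51e-13) and -2.12 ± 0.09 in the other batch (edgeR adjusted p = 8.19e-13). Dnajc30, which acts with respiratory chain assembly, changed by -0.97 ± 0.08 and -1.05 ± 0.08, and Dnajc15, of the protein import motor, by -0.82 ± 0.08 and -0.76 ± 0.08. Beside these falls, transcripts of the mitochondrial genome took 14.4% of the counts in the shRNA-labelled hearts of both batches, 25.4% in controls of batch LC and 26.7% in controls of batch LA, and their part in the result was not tested.

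The DNAJ genes of the cytosol and the endoplasmic reticulum moved by smaller amounts. Dnajb1, the inducible partner of HSP70, had 24.4, 24.2 and 22.6 CPM in shRNA-labelled hearts and 20.0, 20.5 and 11.8 CPM in controls of batch LC, where the third control was far below the other 2. It was called at 0.44 ± 0.14 in batch LC (edgeR adjusted p = 0.00951) but 0.22 without that control (edgeR adjusted p = 0.051). In the other batch Dnajb1 rose by 0.62 ± 0.14 (edgeR adjusted p = 0.000825). Dnajb4 was called at 0.17 ± 0.07 in batch LC, but had 0.09 without that control (edgeR adjusted p = 0.249), and changed by 0.26 ± 0.07 in batch LA. Dnaja1 rose by 0.19 ± 0.06 and 0.39 ± 0.06, and Dnajb6, which suppresses aggregation and is tied to muscle disease, by 0.28 ± 0.06 and 0.34 ± 0.06. Dnajb5 fell by 0.95 ± 0.09 in batch LC and 0.61 ± 0.09 in batch LA, with 57.3, 56.0 and 49.6 CPM in shRNA-labelled hearts and 113, 115 and 86.0 CPM in controls of batch LC. Dnajb2, a DNAJ protein that delivers clients to the proteasome, was called lower at -0.68 ± 0.05 and -0.58 ± 0.05, Dnajc27, a small GTPase with a J domain, at -0.67 ± 0.10 and -0.74 ± 0.10, Dnajc21, of ribosome assembly, at -0.44 ± 0.06 and -0.50 ± 0.06, and Dnajc12 at -0.53 ± 0.15 and -0.46 ± 0.15. Under scaling by totals Dnajc21 (-0.02 and -0.06) and Dnajc12 (-0.11 and -0.02) were called in neither batch, Dnajc27 was not called in batch LC (-0.24) and Dnajb5 not in batch LA (-0.17). Dnajc2, which sits on the ribosome, was called higher at 0.29 ± 0.07 and 0.21 ± 0.07. Among members of the endoplasmic reticulum, 5 of 10 were called higher and 4 lower in batch LC, where 62.9% of all genes were called (33.3% higher, 29.6% lower). Hspa13 led upward, then Dnajb11 (0.47 ± 0.07), Dnajc10 (0.46 ± 0.06) and Dnajc3 (0.43 ± 0.06). With libraries scaled by their totals the batch LC split was 8 higher and 1 lower. Without the third control of batch LC, 5 of these 10 were called higher and 4 lower in that batch, where 59.4% of all genes were called. The same fit called 5 higher and 2 lower in batch LA, where 61.4% of all genes were called. Dnajb13 was called at 1.67 ± 0.60 in batch LC from 0.373, 0.320 and 0.535 CPM in shRNA-labelled hearts and 0.131, 0.140 and 0.107 CPM in controls, a few counts per library. The call was lost without the third control (1.56, edgeR adjusted p = 0.0607), and the gene overlaps the abundant Ucp2 on the other strand, so this value is uncertain.

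**Figure D4:**
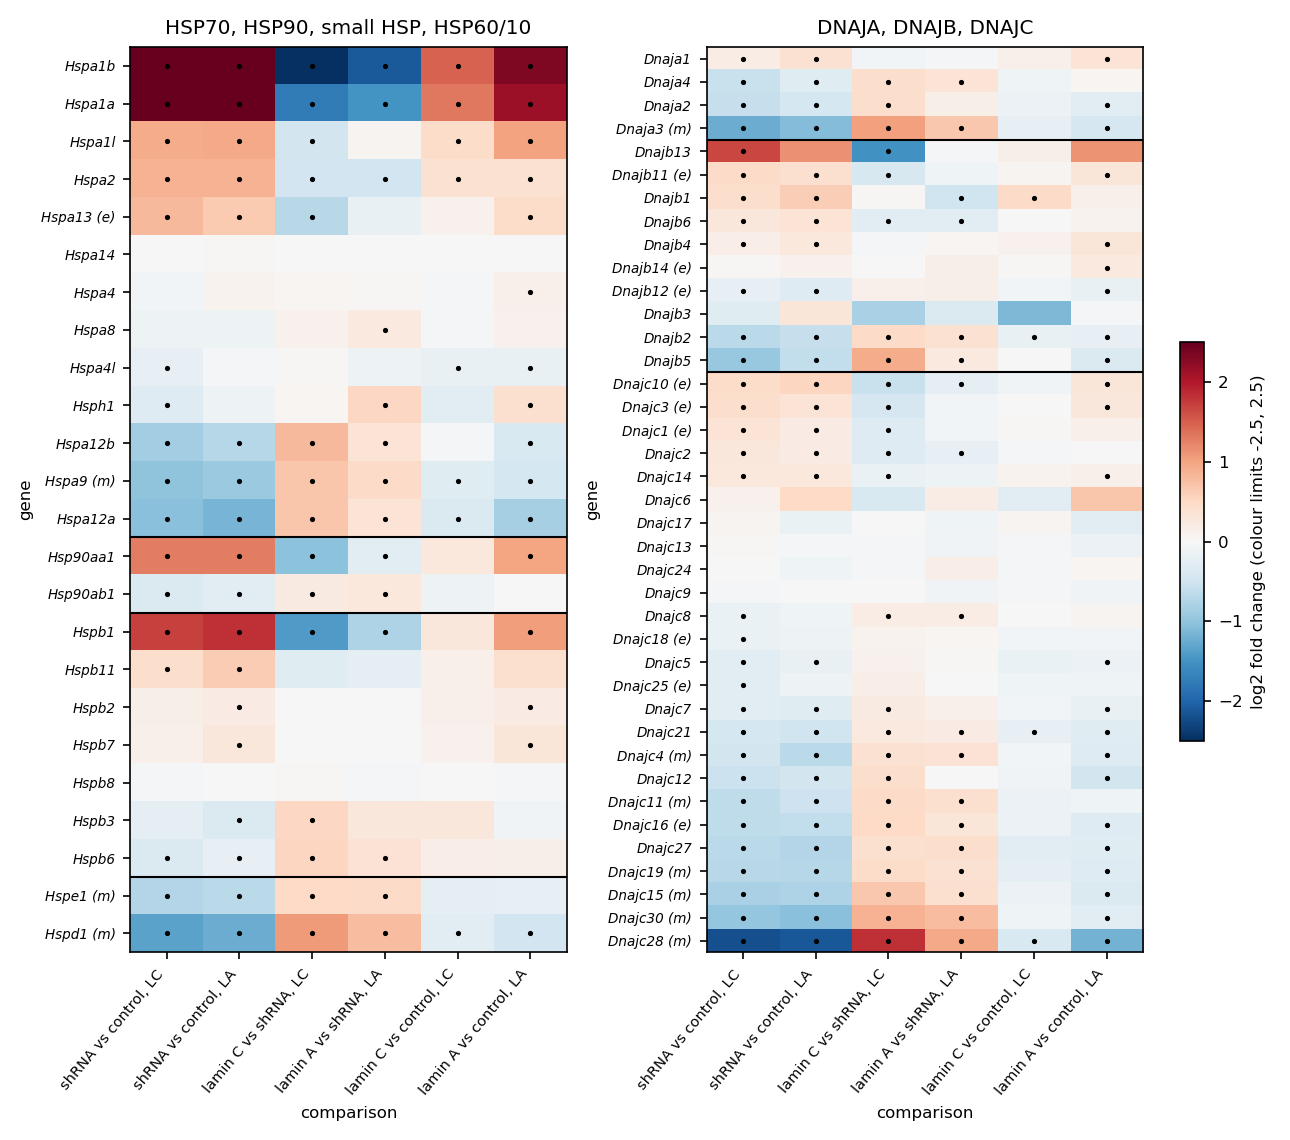
Log2 fold change of each tested member (down the page, by family) in 6 comparisons (across), with a dot where edgeR called it at an adjusted p under 0.05, (m) for mitochondrial and (e) for endoplasmic reticulum members, and colours capped at 2.5 either way. Members marked (m) are blue in shRNA-labelled hearts over control and red in both lamin groups over shRNA-labelled hearts, and Hspa1b and Hspa1a show the reverse.

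The regulators and partners of the members came from lists of related genes. Hsf1, the main heat shock factor, was lower at the transcript level, with changes of -0.52 ± 0.08 and -0.47 ± 0.07 in batches LC and LA, and Hsf2 was higher at 0.20 ± 0.08 and 0.29 ± 0.08. These were 2 of 4 genes in the list, which held Hsf1, Hsf2, Hsf4 and the factor-binding protein Hsbp1. The batch LC call of Hsf2 was lost without the third control (0.12, edgeR adjusted p = 0.216). Under scaling by library totals 3 were called higher and 0 lower in each batch, so the fall of Hsf1 was called in neither. Of 25 cochaperones of HSP70 and HSP90, 3 were called higher and 16 lower in batch LC and 2 higher and 13 lower in batch LA, but 15 higher and 3 lower, and 19 higher and 3 lower, with libraries scaled by their totals. The share called was 76% in batch LC and 60% in batch LA, beside 62.9% and 61.4% of all genes, and without the third control 1 was called higher and 15 lower in batch LC. The steroid receptor immunophilin Fkbp4 had 107, 124 and 79.3 CPM in shRNA-labelled hearts and 435, 439 and 447 CPM in controls of batch LC, a change of -2.09 ± 0.12 (and -1.93 ± 0.12 in batch LA). The myosin chaperone Unc45b changed by -0.96 ± 0.06 and -0.95 ± 0.06, and Cdc37l1, a relative of the kinase loader Cdc37, by -0.86 ± 0.07 and -0.88 ± 0.07. Fkbp5, a partner of HSP90 that glucocorticoids induce, rose by 1.74 ± 0.38 and 1.04 ± 0.40. Cryab, the heart's alphaB-crystallin, rose by 0.34 ± 0.07 and 0.50 ± 0.07.

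Of 12 further mitochondrial chaperones and proteases, 11 were called lower and 0 higher in each batch, or 7 lower and 3 higher with libraries scaled by their totals. The protease subunit Clpx (-1.11 ± 0.06 in batch LC) and Trap1, the HSP90 of mitochondria (-0.87 ± 0.06), fell most. Of 14 subunits of the cytosolic chaperonin TRiC and of prefoldin, 1 was called higher and 4 lower in batch LC and 5 higher and 3 lower in batch LA, but 13 and 14 were higher with libraries scaled by their totals. Cct8 had the highest change among them (0.44 ± 0.05 in batch LC) and Pfdn6 the lowest (-0.43 ± 0.06). Of 12 chaperones of the endoplasmic reticulum outside the members, 7 were called higher and 1 lower in batch LC and 6 higher and 1 lower in batch LA, or 11 higher and 0 lower in each with libraries scaled by their totals. These are 66.7% and 58.3% of the list, beside 62.9% and 61.4% of all genes. With lamin C over shRNA-labelled hearts 0 of these 12 were called higher and 8 lower, and with lamin A 6 were called higher and 1 lower, or 2 higher and 1 lower with libraries scaled by their totals. Of all genes 28.4% were called lower with lamin C and 16.1% higher with lamin A. Without the third control of batch LC 8 of the 12 were called higher with lamin A, and the other 3 splits of these chaperones had the same counts.

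The second comparison asked how hearts given a lamin differed from shRNA-labelled hearts of the same batch. With lamin C 25 of 63 members were called higher and 15 lower, where 54.1% of all genes were called (25.7% higher, 28.4% lower), and with lamin A 23 were called higher and 9 lower, where 29.8% of all genes were called (16.1% higher, 13.7% lower). With libraries scaled by their totals the splits were 14 higher and 34 lower with lamin C, and 12 higher and 25 lower with lamin A. All 10 mitochondrial members were called higher with each lamin, with medians of 0.68 for lamin C and 0.48 for lamin A, beside medians of -0.04 and -0.00290 over all genes tested. With libraries scaled by their totals 7 of the 10 remained called higher with lamin C and 9 with lamin A. Hspa1b fell by 2.74 ± 0.20 with lamin C and by 2.10 ± 0.18 with lamin A, and Hspb1 fell by 1.42 ± 0.11 and 0.77 ± 0.11. Hsp90aa1 fell by 1.02 ± 0.11 with lamin C (edgeR adjusted p = 1.16e-07). With lamin A it was called at -0.29 ± 0.10 (edgeR adjusted p = 0.0433), a call lost when any library of batch LA other than the third lamin A heart was left out, when the first lamin C heart, the third lamin C heart or the first shRNA-labelled heart of batch LC was left out (-0.30 to -0.25), and in limma-trend. Hspa13 changed by -0.69 ± 0.07 with lamin C and -0.19 ± 0.07 with lamin A (edgeR adjusted p = 0.052), the last not called. Hspa1l changed by -0.47 ± 0.14 with lamin C, and had 0.07 ± 0.14 with lamin A (edgeR adjusted p = 0.766). Hsph1 had 0.05 ± 0.10 with lamin C (edgeR adjusted p = 0.671) and rose by 0.51 ± 0.10 with lamin A. Of members that were below control in shRNA-labelled hearts, Dnajc28 rose by 1.83 ± 0.09 with lamin C and 0.94 ± 0.09 with lamin A, Hspd1 by 1.06 ± 0.07 and 0.77 ± 0.07, and Dnajb5 by 0.93 ± 0.09 and 0.25 ± 0.09. These comparisons share the shRNA-labelled hearts with the first, so opposite signs between them are partly built in.

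The third comparison asked how far lamin hearts stood from controls of their batch. In lamin C hearts 5 of 63 members were called higher and 7 lower, where 15% of all genes were called (8.87% higher, 6.18% lower). At an unadjusted edgeR p under 0.05 this comparison held 28 of the 63, where 28.3% of all genes were at such a p. Lamin A hearts differed at 18 higher and 21 lower, where 46.2% of all genes were called (24.1% higher, 22.1% lower). With libraries scaled by their totals the splits were 13 higher and 3 lower for lamin C, and 31 higher and 5 lower for lamin A. Hspa1b was above control with lamin C (1.48 ± 0.26, edgeR adjusted p = 0.0007) and with lamin A (2.34 ± 0.25, edgeR adjusted p = 3.26e-07), and the summed copies were higher by 1.39 ± 0.22 and 2.24 ± 0.23. The inducible copies held 0.917% to 1.32% of the HSP70 FPKM defined above in lamin C hearts, and 1.09% to 1.95% in lamin A hearts. Hsp90aa1 had a difference of 0.26 ± 0.11 with lamin C (edgeR adjusted p = 0.109), which was 0.45 and called (edgeR adjusted p = 0.000747) without the third control of batch LC, and rose by 0.99 ± 0.11 with lamin A. Hspb1 likewise had 0.28 ± 0.11 with lamin C (edgeR adjusted p = 0.099), or 0.41 and called (edgeR adjusted p = 0.0201) without that control, and rose by 1.05 ± 0.11 with lamin A. Hsp90aa1 made up 8.20% to 8.99% of HSP90 FPKM in lamin C hearts and 13.0% to 14.5% in lamin A hearts. Dnajc28 remained below control at -0.38 ± 0.08 with lamin C and -1.18 ± 0.09 with lamin A, Hspa12a at -0.36 ± 0.07 and -0.83 ± 0.07, and Hspa9 at -0.31 ± 0.05 and -0.44 ± 0.05. Of the mitochondrial members 3 of 10 were called lower with lamin C and 8 of 10 with lamin A. Leaving out the third control of batch LC ended the lamin C calls of Dnajb1 (0.26), Dnajb2 (-0.17), Hspa2 (0.30), Hspa4l (-0.14), Hspa1l (0.50) and Hspd1 (-0.22), while Hspa1b (1.39), Hspa1a (1.24), Hspa9 (-0.29), Hspa12a (-0.31), Dnajc21 (-0.22) and Dnajc28 (-0.36) were still called. Beside Hsp90aa1 and Hspb1, calls of Hspb3 (0.43), Dnaja2 (-0.21) and Dnajc5 (-0.21) appeared, and 13% of all genes were called. With that control kept, the Dnajc21 call was lost without the first or the second control, or without the first or the third lamin C heart.

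The distances of the lamin hearts from their controls were then tested against each other as a difference of differences, lamin C minus lamin A. It called 3 of 63 members higher and 5 lower, where 14.6% of all genes were called (7.29% higher, 7.35% lower). Hspb1 (-0.77 ± 0.16, edgeR adjusted p = 0.003), Hsp90aa1 (-0.73 ± 0.15, edgeR adjusted p = 0.00277), Hsph1 (-0.66 ± 0.14, edgeR adjusted p = 0.00432), Dnajc10, an endoplasmic reticulum reductase (-0.39 ± 0.08, edgeR adjusted p = 0.00286), and Hspa13 (-0.35 ± 0.10, edgeR adjusted p = 0.0294) stood lower with lamin C. Dnajc28 (0.80 ± 0.12, edgeR adjusted p = 0.000313), Hspa12a (0.47 ± 0.09, edgeR adjusted p = 0.00209) and Hspa12b (0.32 ± 0.09, edgeR adjusted p = 0.0245) stood higher with lamin C. Without the third control of batch LC the calls of Hspa13 (-0.25) and Hspa12b (0.28) ended, and those of Hspb3 (0.53) and Dnajb4 (-0.26) appeared. The summed inducible HSP70 copies had a difference of -0.85 ± 0.33 (edgeR adjusted p = 0.0921), which was not called. Beside these differences the summed cardiomyocyte markers were 80750 to 84340 CPM in lamin C hearts and 61530 to 64680 CPM in lamin A hearts, the fibroblast markers 2948 to 3870.0 CPM and 5370.0 to 6368 CPM in the same order of groups, and the macrophage markers 803.5 to 964 CPM and 1528 to 1640.0 CPM. Lmna itself reached 1317, 1064 and 1375 CPM in lamin C hearts and 555.5, 536.9 and 501.5 CPM in lamin A hearts. The part of the markers and of the amount of Lmna transcript was not tested, and lamin and batch cannot be told apart. Outside the members, 10 of 12 endoplasmic reticulum chaperones stood lower with lamin C in this test, led by Sdf2l1 (-1.09 ± 0.26), Creld2 (-0.97 ± 0.17) and Pdia4 (-0.94 ± 0.17), while 1 of 25 cochaperones, Stip1 (-0.37 ± 0.09), which joins HSP70 to HSP90, stood lower and 1, Cdc37l1 (0.45 ± 0.10), higher. Without the third control of batch LC 8 of the 12 stood lower, where 12.8% of all genes were called, the calls of Hsp90b1 (-0.33) and Hyou1 (-0.32) having ended, and Sdf2l1 (-0.86), Creld2 (-0.86) and Pdia4 (-0.78) were still called.

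**Figure D5:**
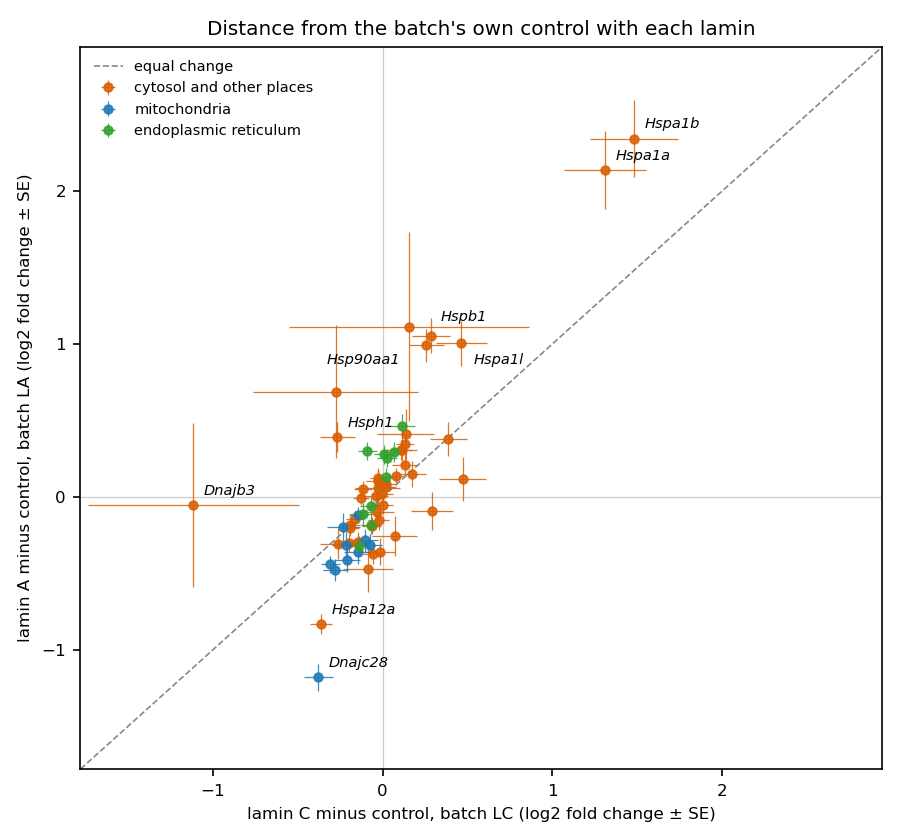
Log2 fold change ± SE over the batch's own controls for each tested member, lamin C (horizontal) and lamin A (vertical), with the dashed line marking equal change. Hspb1 and Hsp90aa1 lie well above the line (1.05 and 0.99 with lamin A, against 0.28 and 0.26 with lamin C), and Dnajc28 lies below it (-1.18 with lamin A, against -0.38 with lamin C).

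The controls of batch LC were also compared with those of batch LA. This test called 1 of 63 members, Dnajb5, where 0.106% of all genes were called (0.0615% higher in batch LC, 0.0448% lower). Dnajb5 had 113, 115 and 86.0 CPM in controls of batch LC and 69.1, 75.3 and 73.9 CPM in controls of batch LA, a difference of 0.53 ± 0.09 (edgeR adjusted p = 0.0251). The call was lost without any 1 of the other 5 controls (edgeR adjusted p = 0.0608 to 0.228), with the compared groups alone (0.275), with a replicate block (0.0621) and in limma-trend (0.0675 to 0.141). For Dnajb5 the third control of batch LC lay nearer to batch LA than the other 2, as it did for Arntl, so this is not a comparison of 2 uniform control groups. Without it 4.53% of all genes were called, and 6 of 63 members were called higher in controls of batch LC, adding Dnajb1 (0.49), Dnajb4 (0.32), Dnaja2 (0.29), Dnaja1 (0.26) and Dnaja4 (0.23) to Dnajb5 (0.65). Of the 12 endoplasmic reticulum chaperones outside the members, 7 were then lower and 1 higher in controls of batch LC, against 0 called with it. With all libraries, Hspa1b (0.28 ± 0.32), Hspb1 (-0.02 ± 0.11) and Hspd1 (0.02 ± 0.07) were not called.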

How the data were processed

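Polyadenylated RNA of 18 heart apex libraries was sequenced, and the authors deposited a table of counts and a table of FPKM for 54532 genes, with a column for each library. The submitters' processing notes list HISAT2 (2.0.5), StringTie (1.3.3b), featureCounts (1.5.0-p3), DESeq2 (1.20.0) and the mm10 genome. The library kit marks strand, per the labels' protocols. The role of each tool and the strand setting of the counting are not given in the sources used here. Genes overlapping on opposite strands are therefore uncertain, and not every such member is flagged with its result. Mean counts per library were 1085 for Dnajc19 and 6847 for Fxr1 on the other strand, and 807.6 for Dnajc30 and 530.6 for Bud23. They were 3080 for Dnaja1 and 1412 for Smu1, and 4523 for Dnaja3 and 815.8 for Coro7.

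The deposited counts were tested with edgeR 4.0.16 in R 4.3.3 by the quasi-likelihood F test after TMM scaling, with the 6 groups in 1 model (12 residual degrees of freedom). Genes were kept by filterByExpr with a minimum count of 10 (17876 genes), and p-values were adjusted by Benjamini-Hochberg over these genes. A standard error is the absolute log2 change divided by the square root of F. The procedure was tested on simulated data. Library totals of 31418657 to 41259968 counts make 3 counts, the limit that a count of 0 allows, worth 0.0622 to 0.108 CPM. The authors' FPKM values served for levels between genes, for shares within a family, and, as log2 of the deposited FPKM plus 1 or 0.1, for limma-trend 3.58.1. DESeq2 1.42.0, other scalings, no filter, a replicate block and leaving out each library were the other alternatives.

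The members, lists and tests were chosen with earlier results of these data known. Every HSP member was described. DNAJ members were named when called with an absolute log2 change of at least 0.8 in a shRNA comparison, or among the 5 largest called changes in either direction of any comparison. From each list of related genes up to 3 called genes of smallest p were named, plus Hsf1 and Cryab. Dnajc4, Dnajc11, Fkbp5, Sdf2l1 and Stip1, and others outside this rule, were named after their values were seen. Promoters were read from a RefSeq table on GRCm38.p6.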

Additional observations from a re-analysis of the deposited data

How the results depend on the processing

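The counts of members called were recomputed under 30 alternatives. Scaling by library totals gave 36 higher and 16 lower (shRNA-labelled over control, batch LC), 39 and 14 (batch LA), 14 and 34 (lamin C over shRNA-labelled), 12 and 25 (lamin A over shRNA-labelled), 13 and 3 (lamin C over control), 31 and 5 (lamin A over control), and 14 lower in the difference between lamins. It reversed the sign of Hsp90ab1 (0.068), Hspb6 (0.0595), Hspa4l (0.21) and Hsph1 (0.10) in the shRNA comparison of batch LC, of Hsp90ab1 (0.16), Hspb6 (0.23) and Hspb3 (0.0692) in that of batch LA, of Hsp90ab1 (-0.0799) and Dnajc21 (-0.0692) for lamin C over shRNA-labelled hearts, of Dnajc21 (-0.0039) for lamin A over shRNA-labelled hearts, and of Hspa4l (0.0537) and Dnajb2 (0.0334) for lamin A over control. This scaling shifts all genes by construction, as given with the libraries. Without a filter 8 members were called higher with lamin C over control, 8 lower in the difference between lamins and 4 higher between the controls. With the compared groups alone 3 were called higher with lamin C over control and 0 between the controls, and limma-trend without a filter also gave 3 and 0. Limma-trend with either pseudocount gave 0 between the controls, DESeq2 gave 5, and leaving out both late-numbered controls gave 6. The cause of these was not tested.

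Leaving out each library gave 2 to 5 members higher and 3 to 8 lower with lamin C over control, 0 to 1 lower in the difference between the shRNA effects, and 0 to 6 higher between the controls, with 6 only without the third control of batch LC. The other counts stayed within 1.5 times their value. The control difference of Dnajb5 was lost without any 1 of the other 5 controls (0.46 to 0.55). For lamin C over control Hspa1l was lost in 10 of 18 such fits (0.38 to 0.53) and Hspd1 without the first lamin C heart (-0.23). For the difference between lamins Hspa12b and Hspa13 were each lost in 6 of 18 fits (0.28 to 0.32 and -0.36 to -0.25). The calls of Hspb1, Hsp90aa1, Hsph1, Dnajc10, Dnajc28 and Hspa12a in that test were kept in all 18.

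Equal replicate numbers did not mark pairs, since same-numbered libraries of a batch had correlations of -0.055 to 0.099. With the number as a replicate block 0 members were called between the controls, and 4 of 177 calls of named members were lost: Hspb6 in the shRNA comparison of batch LA (-0.20), Hspa4l with lamin C over control (-0.19), Hspa4 with lamin A over control (0.12) and Dnajb5 between the controls (0.58).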
